A study of Mus musculus with 15 samples.

Results

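A set of 29 interferon-stimulated genes was followed through perivascular adipose tissue (PVAT), the fat that surrounds the aorta, in mice with and without Prdm16 in adipocytes. The genes were taken by symbol from the table of counts per Ensembl gene. All 29 were found among its 43352 genes and all 29 passed the filter on low counts, which kept 19645 genes. The set was higher in abdominal than in thoracic fat in control mice, with all 29 genes past the threshold of the test, which 29.3% of all genes tested passed in that direction. For the deletion of Prdm16, edgeR's test called no gene of the set in either depot, with 7 genes in thoracic and 13 in abdominal fat at an unadjusted p under 0.05, while DESeq2 called 3 and 1. Over all genes tested, 26.0% in thoracic and 12.4% in abdominal fat were under that limit, so the thoracic count was no more than the share over all genes. All such shares are edgeR's, and none is given for DESeq2.

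Poly(A) RNA was sequenced from thoracic PVAT (tPVAT) and abdominal PVAT (aPVAT) of mice aged 11 weeks. Controls carried Prdm16flox alleles. The conditional knockout mice (cKO) were Prdm16flox, AdipoQCre+, which is to say that they carried the same floxed alleles and in addition a Cre recombinase under the control of Adipoq, a gene of differentiated adipocytes. Cells of other types in the tissue therefore keep Prdm16, and all mice of the study carry the floxed alleles. There were 4 libraries of tPVAT control, 4 of tPVAT cKO, 4 of aPVAT control and 3 of aPVAT cKO, the last numbered 1, 3 and 4. Whether these came from separate animals, and the sex of the mice, is not given in the labels. The p-values then cover only the spread among these libraries, which may in part be technical. Total counts per library ran from 37.8 M to 68.7 M, with aPVAT cKO 4 the smallest. Prdm16 itself fell from 47.3 ± 6.04 to 22.4 ± 1.07 counts scaled to library size (CPM; mean ± SD, n = 4 and 4) in tPVAT and from 23.7 ± 2.22 to 16.1 ± 1.99 CPM (n = 4 and 3) in aPVAT. Adjusted p was 2.22e-06 and 0.00992 (edgeR's quasi-likelihood F test, Benjamini-Hochberg over all genes tested), the test used for every comparison of single genes here. Markers of brown and beige adipocytes such as Ucp1, Cidea and Elovl3 summed to 8799 to 9524 CPM in tPVAT controls, against 714 to 1204 CPM in aPVAT controls. Markers common to adipocytes summed to at least 10390 CPM in every tPVAT library and at least 10830 CPM in every aPVAT library.

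Interferons are secreted proteins that switch on defence genes in the cells that bind them. Type I interferons act through the receptor chains Ifnar1 and Ifnar2 and the kinases Jak1 and Tyk2. A complex that holds Stat2 and Irf9, ISGF3, then binds the interferon-stimulated response element (ISRE) in target promoters, while interferon gamma acts through a shorter site, GAS. Prdm16 is best known as a factor that keeps up the brown and beige adipocyte program, and it has also been described as a repressor of interferon-responsive genes in adipocytes.

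The set holds factors of the pathway, sensors of viral nucleic acid and effectors. Promoter windows of RefSeq on GRCm38.p6, the mouse assembly also called mm10, were found for 22 of the 29 genes, 26 windows in all, each of 300 bases from 250 before to 50 after the start of transcription. The core of the ISRE was searched as GAAANNGAAA and the GAS site as TTCNNNGAA, on both strands, and 1 match of each kind overlapped the other. An ISRE core was found in windows of 12 of the 22 genes (46.2% of their windows), against 3.44% of all 32851 windows in the table. A GAS match was found for 6 of the 22 genes (23.1% of windows), against 8.3% of all windows. A match describes letters in a window and not a bound site.

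The windows of 6 of these genes are shown in the direction of transcription with ISRE cores in capitals. All 6 have a core and are among the genes described further on. Irf7, Irf9 and Psmb8, also described there, had no ISRE core in a window. Isg15 lies at chr4:156200769-156201068 on the minus strand and has 3 overlapping cores, the first beginning 78 bases before the start. Ifit1 (chr19:34640639-34640938, plus strand) and Ifit3 (chr19:34583279-34583578, plus strand) each have 2 cores, all read on the opposite strand as TTTCNNTTTC. Oas1a (chr5:120907476-120907775, minus strand) has 2 overlapping cores that begin 20 and 14 bases before the start. Cxcl10 (chr5:92348840-92349139, minus strand) has 1 core at 213 bases and Gbp2 (chr3:142620413-142620712, plus strand) has 1 at 59 bases before the start. The last window, that of Irf1 (chr11:53769764-53770063, plus strand), holds no ISRE core and is shown for its GAS match, in capitals, 90 bases before the start.
Isg15: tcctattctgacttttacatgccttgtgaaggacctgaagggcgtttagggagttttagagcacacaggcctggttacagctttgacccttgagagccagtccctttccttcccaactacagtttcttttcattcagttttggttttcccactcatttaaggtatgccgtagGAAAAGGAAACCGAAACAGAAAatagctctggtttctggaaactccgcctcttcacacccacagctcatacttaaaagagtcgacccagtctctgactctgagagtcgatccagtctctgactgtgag
Ifit1: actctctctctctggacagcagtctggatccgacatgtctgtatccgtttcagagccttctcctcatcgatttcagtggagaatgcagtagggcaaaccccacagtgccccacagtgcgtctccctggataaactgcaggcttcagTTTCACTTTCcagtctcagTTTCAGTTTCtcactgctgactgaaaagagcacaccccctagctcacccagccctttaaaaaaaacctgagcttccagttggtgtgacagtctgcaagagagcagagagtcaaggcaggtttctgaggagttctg
Ifit3: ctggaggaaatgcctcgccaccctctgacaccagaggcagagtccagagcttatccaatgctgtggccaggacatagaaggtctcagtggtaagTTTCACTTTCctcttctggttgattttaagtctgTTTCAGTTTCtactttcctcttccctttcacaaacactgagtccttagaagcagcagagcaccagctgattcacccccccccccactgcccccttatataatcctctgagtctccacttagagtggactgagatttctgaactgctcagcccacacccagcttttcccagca
Oas1a: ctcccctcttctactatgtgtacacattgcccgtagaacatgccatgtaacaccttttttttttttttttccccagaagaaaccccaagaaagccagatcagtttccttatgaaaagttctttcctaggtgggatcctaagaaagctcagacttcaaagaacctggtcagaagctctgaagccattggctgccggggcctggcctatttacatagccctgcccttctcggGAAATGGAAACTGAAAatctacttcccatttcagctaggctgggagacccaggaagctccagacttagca
Cxcl10: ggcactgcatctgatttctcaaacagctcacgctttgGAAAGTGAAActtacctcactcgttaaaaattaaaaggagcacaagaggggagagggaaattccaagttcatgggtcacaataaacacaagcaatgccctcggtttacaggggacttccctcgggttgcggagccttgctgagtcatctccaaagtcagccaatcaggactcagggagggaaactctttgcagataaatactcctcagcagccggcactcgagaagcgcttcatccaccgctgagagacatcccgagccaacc
Gbp2: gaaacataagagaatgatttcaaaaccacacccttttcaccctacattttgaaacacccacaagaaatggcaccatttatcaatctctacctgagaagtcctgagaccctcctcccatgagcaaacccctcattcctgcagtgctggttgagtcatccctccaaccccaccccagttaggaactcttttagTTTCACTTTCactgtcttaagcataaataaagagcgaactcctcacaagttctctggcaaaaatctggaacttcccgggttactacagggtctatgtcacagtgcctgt
Irf1: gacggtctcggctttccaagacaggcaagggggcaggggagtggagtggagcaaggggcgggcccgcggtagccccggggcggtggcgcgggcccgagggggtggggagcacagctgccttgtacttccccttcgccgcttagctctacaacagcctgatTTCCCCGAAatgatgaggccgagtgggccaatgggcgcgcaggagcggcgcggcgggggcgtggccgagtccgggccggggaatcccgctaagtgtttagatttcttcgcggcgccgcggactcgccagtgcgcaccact

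Levels were also divided by the length of all annotated exons of a gene, merged over its transcripts. This length can exceed that of the mRNA, and for Irf7 it covers the whole gene (3776 bases). Such genes are understated, so the order between genes is a rough one. Per kilobase by this measure, 3 genes led the set in every group. In aPVAT controls these were Gbp2 (a guanylate-binding protein that attacks the vacuoles of intracellular pathogens) at 38.8 ± 15.1 CPM per kb, Bst2 (tetherin, which holds budding virus at the cell surface) at 32.8 ± 5.92 CPM per kb and Ifit3 (which works with Ifit1 against viral RNA) at 27.4 ± 7.76 CPM per kb. Their order was not resolved, since the means lay within these SDs (n = 4). Gbp3, Psmb8, Irf1, Ifi35 and Isg15 followed between 12.2 and 10.8 CPM per kb and were likewise not separated from one another. Mx2 was lowest in aPVAT controls, at 0.50 ± 0.13 CPM per kb, and Mx1, also a dynamin-like GTPase that blocks viruses, was next at 0.64 ± 0.22.

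Libraries of 1 group were less alike in these genes than in others. The median SD of log2 CPM over the 29 genes was 0.31 in tPVAT controls and 0.32 in aPVAT controls, against 0.12 and 0.16 over the 11871 genes that lay in the same range of levels. In tPVAT cKO and aPVAT cKO it was 0.15 and 0.19, against 0.12 and 0.13. The spread between the control libraries thus ran well above that of other genes. How small a change in this set could be detected depends on the spread over all groups, which share 1 fit.

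The deviations were shared by most of the set. Among tPVAT controls, control 1 was the lowest for 28 of the 29 genes and control 2 the highest for 17. Among aPVAT controls, control 4 was the lowest for 21 genes, and the highest library was control 2 for 16 and control 1 for 13. In aPVAT cKO, number 1 was the lowest for 22 genes and number 3 the highest for 19. These ranks follow from values that are not independent between genes.

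**Figure D1:**
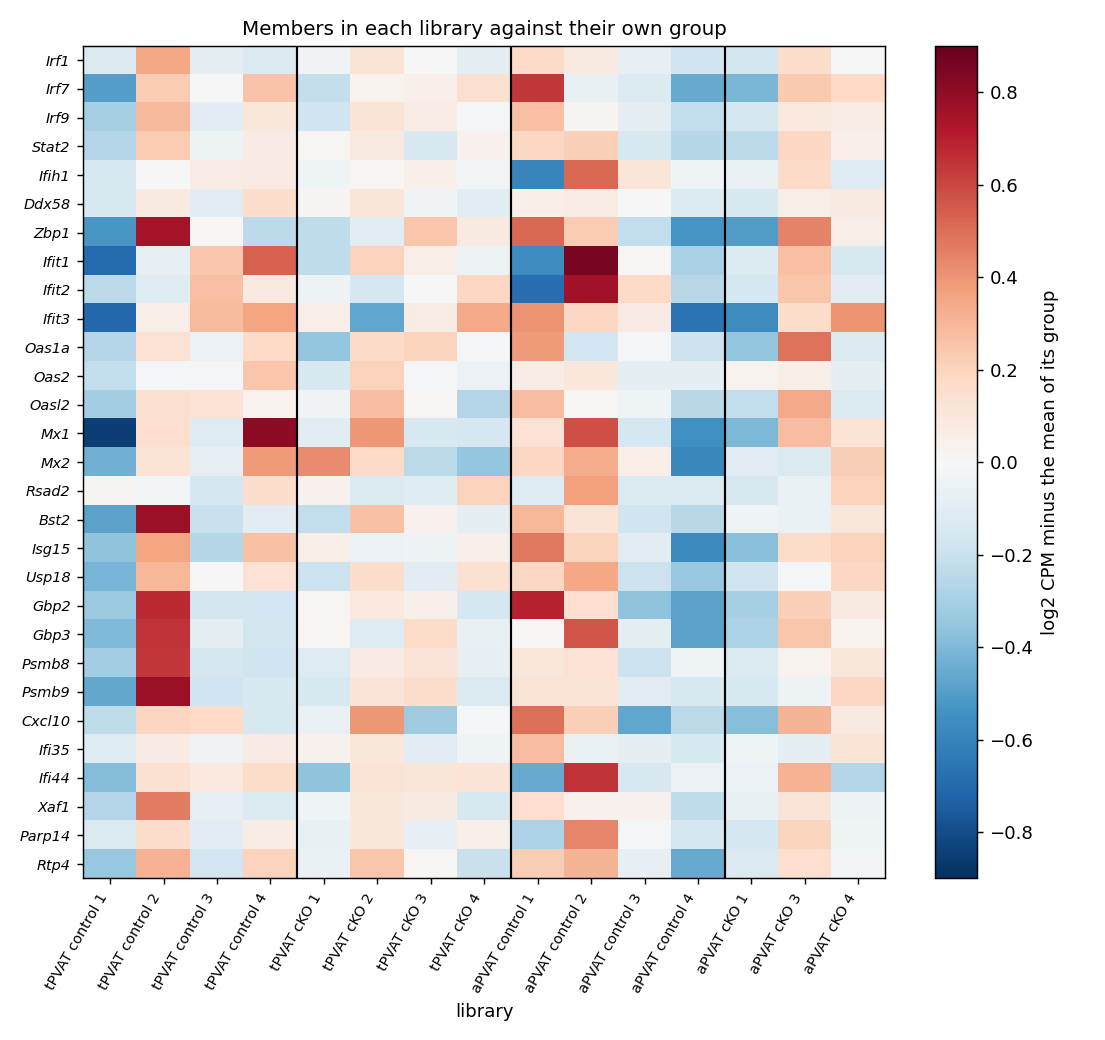
Each row is 1 of the 29 genes and each column 1 of the 15 libraries. Colour gives log2 CPM less the mean of the library's own group, so red is above and blue below that mean. The column of tPVAT control 1 is blue for nearly all genes, and tPVAT control 2 is red above all in Zbp1, Bst2, Gbp2, Gbp3, Psmb8 and Psmb9.

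The pattern was not the same for all genes in these libraries. In tPVAT control 2 Psmb8, a catalytic subunit of the immunoproteasome, stood at 24.6 CPM, against 12.8, 14.2 and 13.9 CPM in controls 1, 3 and 4. Gbp2 was at 58.5 CPM there and at 29, 32.7 and 32.6 CPM in the others, while Ifit1, Ifit2 and Ifih1 of the same library lay within the range of the other controls. The genes of MHC class I antigen presentation, 16 genes that include the H2 heavy chains and B2m, summed to 2612 CPM in control 2 and to between 1511 and 1709 CPM in the others. Macrophage markers summed to 580 CPM in control 2 and to between 519 and 557 CPM in the others, and their part in the deviation was not tested.

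A similar division was seen in aPVAT controls. Irf7, the factor that amplifies type I interferon production, was at 41.8 CPM in control 1 and at 25.7, 24.7 and 19.7 CPM in controls 2, 3 and 4. Ifit1 in the same order was at 8.23, 22.2, 12.3 and 9.96 CPM, and Ifih1, the cytosolic RNA sensor MDA5, at 13.7, 29.5, 22.2 and 20.1 CPM. Control 1 was thus the highest library for Irf7 and the lowest for Ifit1 and Ifih1, and control 2 the highest for Ifit1 and Ifih1.

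How closely each gene followed the others was measured as Pearson's r between its log2 CPM and the mean of the other 28 over the 15 libraries, each less its group mean. It ran from 0.22 for Ifih1 to 0.94 for Stat2 with a median of 0.71, and 25 genes lay above 0.5. Among all genes outside the set, the 5 most like its mean by this measure were Irgm2 (0.90), Igtp (0.89), Gm12250 (0.88), Phf11d (0.88) and Pcsk5 (0.88). Irgm2 and Igtp encode immunity-related GTPases, known targets of interferon gamma, and Pcsk5 is a proprotein convertase. These are descriptions over 15 libraries that share depots and genotypes. The part of the libraries' cell composition in them was not tested.

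The depots differed more than the genotypes did. In control mice all 29 genes were higher in aPVAT than in tPVAT, where 29.3% of all genes tested were higher at the same threshold. The median log2 fold change was 0.93, against 0.04 over all genes tested, and single genes ran from 0.40 for Ddx58 (RIG-I, a sensor of viral RNA) to 2.33 for Cxcl10. The sum over the set was 345 ± 62.8 CPM in tPVAT controls, from 278 to 429, and 681 ± 119 CPM in aPVAT controls, from 543 to 781 (SD, n = 4 each). In 23 of the 29 genes no aPVAT control lay within the range of the tPVAT controls, as was so in this direction for 25.4% of all genes. The exceptions were Bst2, Ifih1, Gbp3, Mx2, Ifit2 and Ifi44. Ifit2 (0.62, SE 0.23) and Ifi44 (0.57, SE 0.22), with adjusted p of 0.0288 and 0.0353, were the weakest calls, and without aPVAT control 2 neither passed (0.31 and 0.30).

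Cxcl10 (ENSMUSG00000034855, chr5:92346638-92348889, minus strand), a chemokine that draws activated T cells, differed most. It stood at 0.494, 0.674, 0.666 and 0.527 CPM in tPVAT controls 1 to 4 and at 4.07, 3.35, 2.08 and 2.43 CPM in aPVAT controls 1 to 4. Every aPVAT value was more than any tPVAT value, and the log2 fold change was 2.33 with an SE of 0.24 (adjusted p = 7.63e-07). Of its exon sequence 5.91% overlaps Art3 on the opposite strand. The strand setting of the counts is not given in the sources used here, and the largest such overlaps in the set, with any gene on either strand, were 16.8% for Ifi35, 14.7% for Psmb8 and 13.9% for Rtp4.

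Rtp4 (ENSMUSG00000033355, chr16:23520291-23614222, plus strand), an interferon-induced protein that limits flaviviruses, was at 5.91, 9.33, 6.66 and 8.67 CPM in tPVAT controls and at 22.4, 23.8, 18.3 and 14.1 CPM in aPVAT controls. The ranges did not meet, and its log2 fold change was 1.36 with an SE of 0.17 (adjusted p = 4.95e-06). Irf7 (ENSMUSG00000025498, chr7:141262706-141266481, minus strand) stood at 6.31, 10.4, 8.91 and 10.6 CPM in tPVAT controls, below the lowest aPVAT control at 19.7 CPM. Its log2 fold change was 1.63 with an SE of 0.22 (adjusted p = 1.11e-05).

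Of the immunoproteasome, Psmb8 (ENSMUSG00000024338, chr17:34197721-34201454, plus strand) stood at 42.9, 43.7, 34.8 and 38.7 CPM in aPVAT controls, again above every tPVAT control. It was higher in aPVAT by 1.29 on the log2 scale with an SE of 0.16 (adjusted p = 5.56e-06), and Psmb9, the second inducible subunit, by 1.17. Psmb10, the third, which is outside the set, was higher by 0.87 (adjusted p = 2.28e-05). The subunits that these 3 replace in the standard proteasome went the other way. Psmb5, Psmb6 and Psmb7 were lower in aPVAT controls by log2 fold changes of -0.66, -0.24 and -0.59 (adjusted p at most 0.000695).

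Signalling factors and sensors were higher in aPVAT controls as well. Stat2, Irf9 and Irf1 had log2 fold changes of 0.74, 0.61 and 0.68. Zbp1, a sensor of Z-form nucleic acid that triggers cell death, was at 11.6 ± 3.68 CPM in aPVAT controls against 3.18 ± 1.32 CPM in tPVAT controls, a log2 fold change of 1.86 with an SE of 0.28. Among the 10 antiviral effectors the log2 fold changes ran from 0.48 for Rsad2 (viperin) to 1.68 for Ifit3, with a median of 0.97. Isg15, the ubiquitin-like protein attached to targets during infection, and Usp18, the protease that removes it, had 1.29 and 0.94.

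In cKO mice 27 of the 29 genes were higher in aPVAT than in tPVAT, where 27.2% of all genes were. The median log2 fold change was 0.80, and in all 29 genes the ranges of the groups did not overlap, as was so in this direction for 27.4% of all genes. Ifih1 (0.39, SE 0.17, adjusted p = 0.0649) and Ifit2 (0.49, SE 0.24, adjusted p = 0.0995) did not pass. Without aPVAT cKO 3 the count was 22 with 2 libraries left in that group, and Gbp2, Gbp3, Ifi44, Ifit1 and Oas1a no longer passed.

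**Figure D2:**
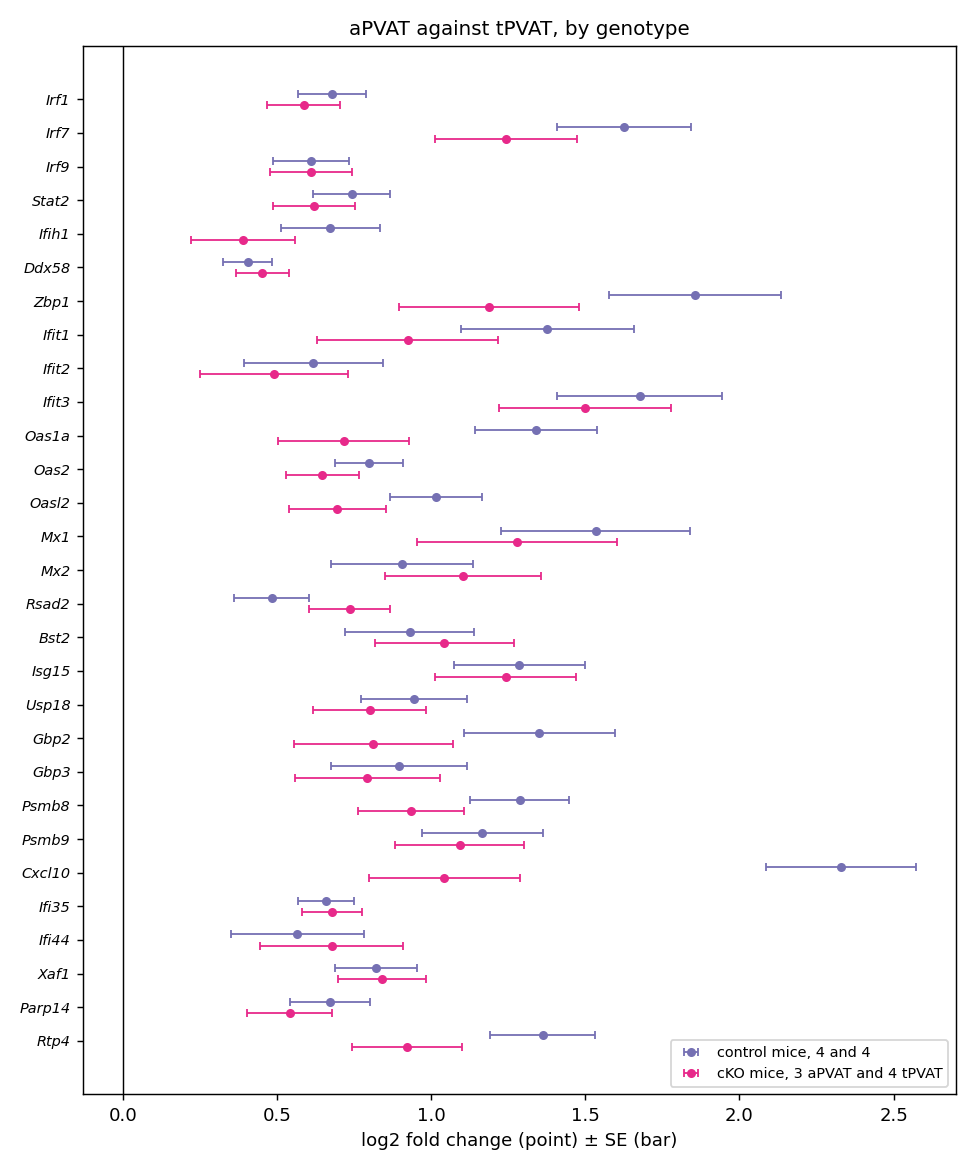
Points are log2 fold changes of aPVAT against tPVAT for each of the 29 genes, in control mice and in cKO mice, and bars are ± 1 SE of the fit. All points lie to the right of 0, and Cxcl10 in control mice at 2.33 is the farthest.

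Other features of the tissue moved with the depot. In controls, the 15 macrophage markers were all higher in aPVAT with a median log2 fold change of 0.93, and summed to between 893 and 1243 CPM there against 519 to 580 CPM in tPVAT. Of 16 markers of T, NK and B cells 14 were higher (median 1.53), with sums of 121 to 259 CPM against 44.1 to 83.3 CPM, and of 10 endothelial markers 8 were higher and 1 lower. Of 10 dendritic cell markers, among them Bst2, 6 were higher, and of 9 fibroblast markers 7. At the same threshold 29.3% of all genes tested were higher in aPVAT controls. Transcripts of the mitochondrial genome took 13.0% to 16.0% of the counts in aPVAT controls and 33.4% to 36.4% in tPVAT controls. In bulk tissue a larger number of cells of a type and more RNA per cell cannot be told apart, and the part of these cell types in the depot difference was not tested.

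**Figure D3:**
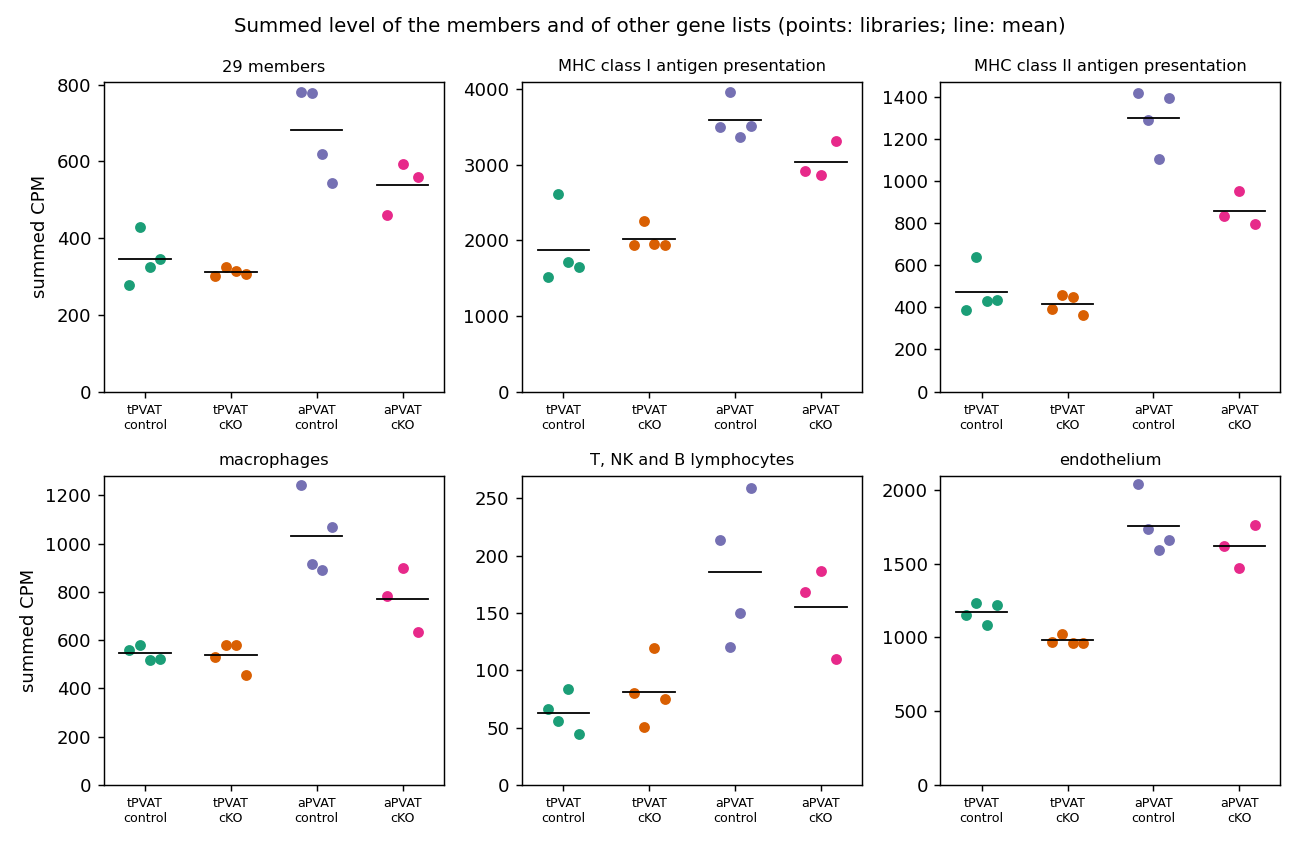
Points are libraries and lines group means of summed CPM, for the 29 genes and for 5 other lists of genes. The sums of the set, of both MHC lists and of macrophage, lymphocyte and endothelial markers were all higher in aPVAT controls than in tPVAT controls, and the sum of the set spread more among controls than among cKO libraries of the same depot.

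The deletion was compared within each depot, first in tPVAT. No gene of the 29 passed the threshold in edgeR's quasi-likelihood F test, where 12.0% of all genes tested did. At an unadjusted p under 0.05 there were 7 of 29, 1 of them higher and 6 lower in cKO, where 26.0% of all genes fell under that limit, 11.2% higher and 14.8% lower. Estimates were below 0 for 22 genes, against 52.1% of all genes, with a median log2 fold change of -0.19 (all genes -0.01) and a range from -0.59 for Mx2 to 0.71 for Cxcl10. The sum over the set was 345 ± 62.8 CPM in controls and 312 ± 10.5 CPM in cKO, and the cKO values, from 301 to 325, lay inside the control range of 278 to 429. Without tPVAT control 2 the median was -0.08 and 18 estimates were below 0.

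Rsad2 (ENSMUSG00000020641, chr12:26442746-26456452, minus strand), an enzyme that makes a chain-terminating nucleotide against viruses, had the smallest p. It stood at 13.3, 12.9, 11.8 and 14.6 CPM in tPVAT controls and at 10.4, 9.21, 9.35 and 11.7 CPM in tPVAT cKO. All cKO values were below all control values, by a narrow margin, and the log2 fold change was -0.38 with an SE of 0.12 (adjusted p = 0.0603). Irf9 (ENSMUSG00000002325, chr14:55603571-55610030, plus strand), the DNA-binding subunit of ISGF3, was at 14.9, 22.5, 17.2 and 19.7 CPM in controls and at 12.6, 15.5, 14.9 and 14.1 CPM in cKO. Here the groups overlapped through control 1 and cKO 2, and the log2 fold change was -0.38 with an SE of 0.13 (adjusted p = 0.0625).

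Cxcl10 was the gene of these 7 with a higher estimate. It was at 0.912, 1.25, 0.756 and 0.940 CPM in tPVAT cKO, all above the highest control at 0.674 CPM. The log2 fold change was 0.71 with an SE of 0.26 (adjusted p = 0.0871), on low levels. Ifih1, at 12.1, 13.3, 14 and 14.1 CPM in controls and at 16.3, 16.9, 17.2 and 16.5 CPM in cKO, was likewise separate, with a log2 fold change of 0.32 and an SE of 0.16 (adjusted p = 0.222), and is named here after its values were seen.

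Bst2 (ENSMUSG00000046718, chr8:71534255-71537456, minus strand) stood at 10.5, 25.1, 12.8 and 13.7 CPM in controls and at 8.88, 12.5, 10.7 and 9.80 CPM in cKO. Control 2 was the high library, and the log2 fold change was -0.57 with an SE of 0.21 (adjusted p = 0.0998). Irf1 (ENSMUSG00000018899, chr11:53770014-53778374, plus strand), a factor induced through GAS, was at 26.3, 36.7, 27.1 and 26.3 CPM in controls and at 23.5, 26.2, 24.1 and 22.6 CPM in cKO. The groups were apart by less than the spread within either, with a log2 fold change of -0.27 and an SE of 0.11 (adjusted p = 0.131). Mx2 (ENSMUSG00000023341, chr16:97535308-97560900, plus strand) was at 0.692, 1.03, 0.896 and 1.24 CPM in controls and at 0.840, 0.701, 0.517 and 0.479 CPM in cKO, with overlap and an adjusted p of 0.141.

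Non-overlapping groups were found for 2 genes in the higher direction (Cxcl10 and Ifih1), against 11.0% of all genes, and for 2 in the lower (Rsad2 and Irf1), against 12.2%. Other fits called a few genes. DESeq2 called Bst2, Irf9 and Rsad2 lower. A fit of the tPVAT libraries alone called Cxcl10 (adjusted p = 0.0323) and Ifih1 (adjusted p = 0.00357) higher and Rsad2 (adjusted p = 0.0176) lower. limma with library weights called Ifih1 higher and Irf9 and Rsad2 lower. With 1 library left out in turn the edgeR fit called between 0 and 4 genes. The 4 came without aPVAT control 1 (Cxcl10 and Ifih1 higher, Irf9 and Rsad2 lower), 2 without tPVAT control 1 (Bst2 and Irf9 lower), and 1, Rsad2, without aPVAT control 2 or without tPVAT cKO 4.

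**Figure D4:**
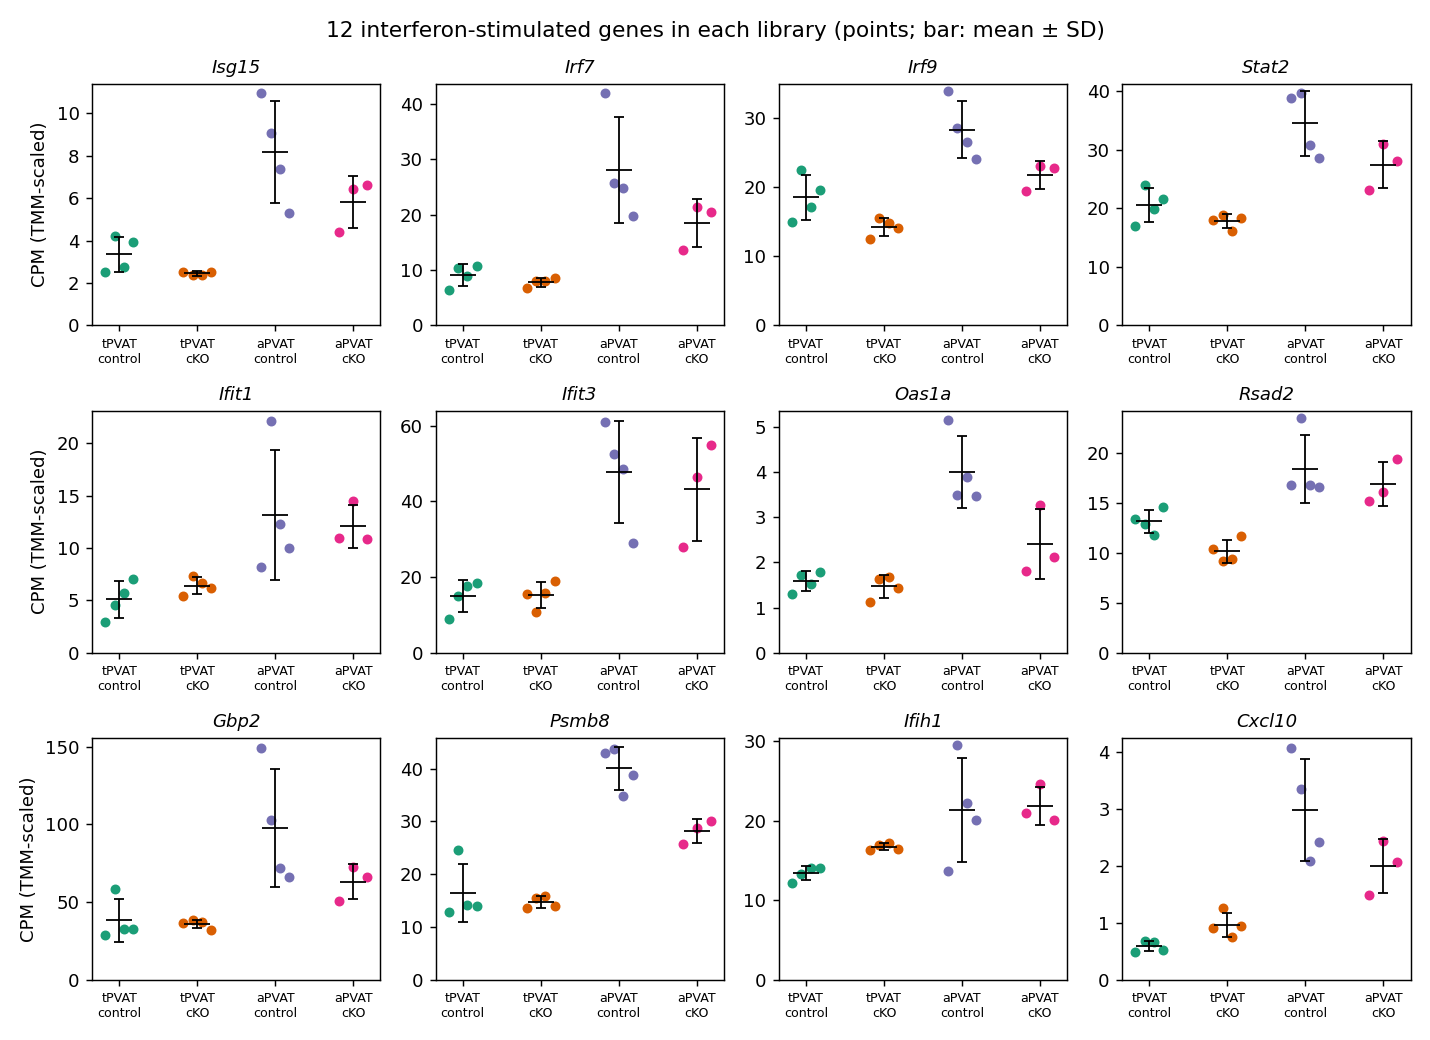
CPM of 12 of the genes in each library, with points for libraries and bars for mean ± SD, for tPVAT control, tPVAT cKO, aPVAT control (n = 4 each) and aPVAT cKO (n = 3). Cxcl10 and Ifih1 of tPVAT cKO lie above tPVAT controls and Rsad2 below, and the aPVAT controls are spread widely in Gbp2, Irf7 and Ifit1.

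In aPVAT no gene of the 29 passed edgeR's test either, where 1.53% of all genes did. DESeq2 called 1, Oas1a, which was lower in cKO (adjusted p = 0.0274). At an unadjusted p under 0.05 there were 13 of 29, all lower in cKO, where 7.72% of all genes were lower at that limit. Estimates were below 0 for 27 genes, against 52.0% of all genes, with a median log2 fold change of -0.37 (all genes -0.01) and a range from -0.73 for Oas1a to 0.04 for Ifih1. The sum over the set was 681 ± 119 CPM in controls and 538 ± 68.8 CPM in cKO (n = 4 and 3), and the ranges, 543 to 781 and 460 to 592, overlapped. In 7 genes (Oas1a, Irf1, Psmb8, Oas2, Irf9, Bst2 and Psmb9) all cKO values were below all control values, as was so in this direction for 5.80% of all genes.

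Oas1a (ENSMUSG00000052776, chr5:120896256-120907521, minus strand), a synthetase of 2′-5′-linked oligoadenylates that activate RNase L, had the smallest p. It was at 5.16, 3.50, 3.90 and 3.47 CPM in aPVAT controls 1 to 4 and at 1.81, 3.28 and 2.12 CPM in aPVAT cKO 1, 3 and 4. Number 3 of the cKO libraries came close to the lowest controls, and the log2 fold change was -0.73 with an SE of 0.21 (adjusted p = 0.108). Without aPVAT cKO 3 it was -1.04 with an adjusted p of 0.0217. Oas2 (ENSMUSG00000032690, chr5:120730333-120749853, minus strand), of the same family, was at 5.36, 5.48, 4.83 and 4.83 CPM in controls and at 4.13, 4.19 and 3.81 CPM in cKO. The spread was small within both groups, and the log2 fold change was -0.34 with an SE of 0.12 (adjusted p = 0.213). Reads shared between Oas genes, or between the Ifit, Mx and Gbp genes, could not be told apart here.

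Irf1 was at 52.3, 49.1, 44.2 and 41.0 CPM in aPVAT controls and at 32.2, 40.3 and 36.2 CPM in aPVAT cKO. The highest cKO value lay just under the lowest control, and the log2 fold change was -0.36 with an SE of 0.12 (adjusted p = 0.187). Irf9 was at 34.0, 28.6, 26.6 and 24.2 CPM in controls and at 19.5, 23.1 and 22.8 CPM in cKO, a log2 fold change of -0.38 with an SE of 0.13 (adjusted p = 0.227). Both factors had estimates of the same sign in tPVAT.

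Psmb8 was at 25.7, 28.7 and 30.1 CPM in aPVAT cKO, below the lowest aPVAT control at 34.8 CPM. Its log2 fold change was -0.51 with an SE of 0.17 (adjusted p = 0.203). When tPVAT control 2, the library in which this gene stood high, was left out of the shared fit, adjusted p was 0.0106. Rtp4 was at 12.9, 15.7 and 13.9 CPM in aPVAT cKO and overlapped the controls through control 4, with a log2 fold change of -0.47 and an SE of 0.18 (adjusted p = 0.266). Among other genes with estimates below -0.5, none of which passed, Gbp2 had -0.63 (SE 0.26), Irf7 -0.60 (SE 0.23), Zbp1 -0.60 (SE 0.29) and Cxcl10 -0.58 (SE 0.23), with adjusted p of 0.271 to 0.411. The antiviral genes Ifit1, Ifit2 and Ifit3, which also spread widely in the control libraries, had -0.12, 0.03 and -0.15 (SE 0.24 to 0.29).

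**Figure D5:**
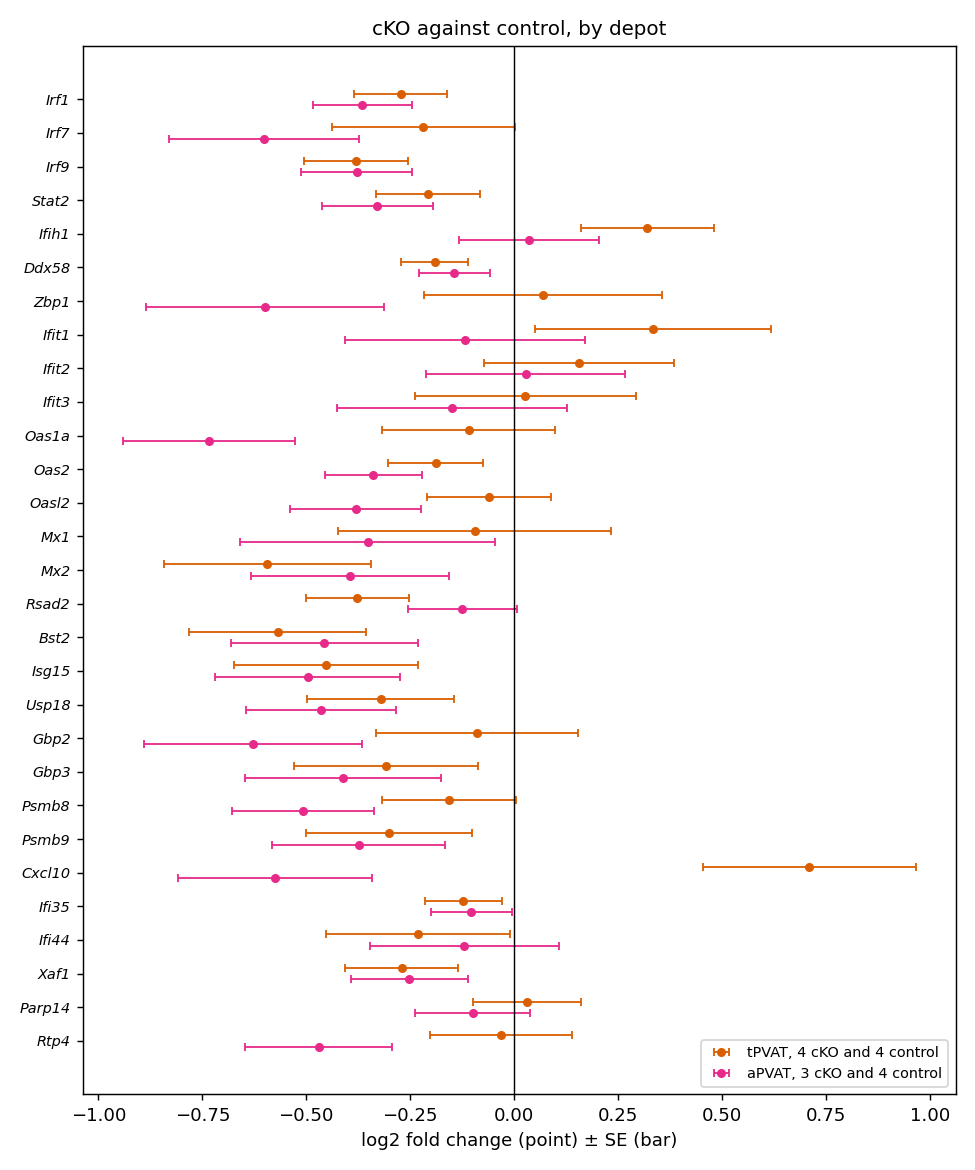
Points are log2 fold changes of cKO against control for each of the 29 genes, in tPVAT and in aPVAT, and bars are ± 1 SE of the fit. Most points lie to the left of 0, none passed the threshold after adjustment, and Cxcl10 lies at 0.71 in tPVAT and at -0.58 in aPVAT.

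Most estimates for macrophage and lymphocyte markers were below 0 in aPVAT cKO too. Endothelial and smooth muscle markers had median log2 fold changes of -0.06 and 0.02 there, with 0 genes at an unadjusted p under 0.05. Of the neutrophil and monocyte markers, 4 had estimates above 0 and 4 below. Over all genes tested, 12.4% in aPVAT and 26.0% in tPVAT had an unadjusted p under 0.05. The threshold in edgeR's test was passed by 1.53% and 12.0% of them. These shares are edgeR's, and counts called by DESeq2 have no share over all genes beside them here. The 15 macrophage markers had a median log2 fold change of -0.46, with 14 estimates below 0, 10 of 15 at an unadjusted p under 0.05 and none past the threshold in edgeR's test, while DESeq2 called 8 of them lower. Their sums were 893 to 1243 CPM in aPVAT controls and 633 to 901 CPM in aPVAT cKO. Lymphocyte markers had a median of -0.63, with sums of 121 to 259 CPM and 110 to 187 CPM. In tPVAT the median of the macrophage markers was -0.05 and the sums were 457 to 580 CPM in cKO, against 519 to 580 CPM in controls. Endothelial markers were lower in tPVAT cKO, with all 10 estimates below 0, 7 at an unadjusted p under 0.05 and 3 past the threshold in edgeR's test, while DESeq2 called 6. Their sums were 963 to 1027 CPM in cKO, below the 1084 to 1235 CPM of controls. All 6 smooth muscle markers had estimates below 0 there, with 5 at an unadjusted p under 0.05 and 1 past the threshold, and their sums of 1821 to 2003 CPM lay below the 2120 to 2785 CPM of controls. Mitochondrial transcripts took 26.5% to 31.6% of the counts in tPVAT cKO, below every tPVAT control. In aPVAT cKO 4 the share of counts on ribosomal, small nuclear, small nucleolar and similar RNA genes was 0.125%, against at most 0.02% in the other libraries, and without this library the median of the set in aPVAT was -0.40. The part of these cells, and of these shares, in the lower estimates of the set was not tested.

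The difference between the depots in the effect of the deletion was tested as an interaction, that is, as the effect in aPVAT less that in tPVAT. No gene of the 29 passed in edgeR's test, where 0.784% of all genes did. At an unadjusted p under 0.05 there were 2, Cxcl10 and Oas1a, where 8.85% of all genes were. DESeq2 called Cxcl10 (adjusted p = 0.0364). Without tPVAT control 2 edgeR called Psmb8 (-0.62, adjusted p = 0.0406). The interaction of Cxcl10 was -1.29 with an SE of 0.35 (adjusted p = 0.135 in edgeR), and in controls it was 5.02-fold and in cKO 2.06-fold higher in aPVAT. The median interaction over the set was -0.13 (all genes -0.01) and ran between -0.24 without aPVAT cKO 3 and -0.03 without aPVAT control 2.

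The genes upstream of the set were read from the same fit. Counts of edgeR's calls in these lists stand against its shares over all genes. Of all genes, 12.0% in tPVAT and 1.53% in aPVAT passed the threshold for the deletion, and 26.0% and 12.4% had an unadjusted p under 0.05. Of 21 interferon genes listed, 17 had no read in any library and none passed the low-count filter. Ifnb1 had 1 read in all 15 libraries together. Ifng had between 0 and 10 reads a library, 41 in the 7 aPVAT libraries and 20 in the 8 tPVAT libraries. Interferon transcripts were thus at the limit of detection, which in bulk poly(A) libraries says little of the protein.

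Among 11 genes of interferon receptors, JAK kinases and STATs, 2 fell in tPVAT cKO. In aPVAT cKO none passed in edgeR or in DESeq2, with 2 at an unadjusted p under 0.05. Tyk2 went from 13.8 to 11.7 CPM (log2 fold change -0.24, adjusted p = 0.0334) and Stat3 from 95 to 77.7 CPM (-0.29, adjusted p = 0.0354). Ifnar1 passed in neither genotype comparison nor in the control depot comparison (adjusted p at least 0.0930), with means from 39.4 to 47.2 CPM. In the control depot comparison 5 of the 11 were higher in aPVAT and 1 lower. Of all 19645 genes tested, 11122 passed there in either direction, and 29.3% were higher.

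Of 19 sensors, adaptors and inducing factors none passed in either genotype comparison in edgeR or in DESeq2, with 6 in tPVAT and 4 in aPVAT at an unadjusted p under 0.05, as were 26.0% and 12.4% of all genes. In the control depot comparison 8 were higher in aPVAT and 3 lower. The share of this list that passed in either direction was close to that over all genes, as it was for the receptors, kinases and STATs. Irf3, the factor that starts type I interferon transcription, lay between 24.9 and 27.5 CPM in the group means and passed in no comparison. Of 15 negative regulators tested, Adar, an RNA editing enzyme that hides cellular RNA from sensors, fell in tPVAT cKO (-0.26, adjusted p = 0.0390). In aPVAT cKO edgeR called none of the 15 and DESeq2 called 1, with 3 at an unadjusted p under 0.05 in edgeR.

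A wider list of 74 further interferon-stimulated genes was read in the same way, and 69 of them were tested. In control mice 55 were higher in aPVAT and 2 lower, with a median log2 fold change of 0.84. In aPVAT cKO edgeR called none and DESeq2 called 5, all lower. At an unadjusted p under 0.05 there were 30 of 69 in edgeR, 64 of 69 estimates were below 0 and the median was -0.23. In tPVAT cKO 4 rose and 4 fell, a share of the list close to the 12.0% of all genes that passed there, with a median of -0.08. The 4 with the smallest p were Ifi27 (510 to 349 CPM, log2 fold change -0.55, adjusted p = 0.00018), Helz2 (49.5 to 35.2 CPM, -0.49), Dtx3l (22.8 to 32.9 CPM, 0.53) and Parp10 (23.2 to 18.5 CPM, -0.33). Ifi27 and Helz2 were also the 2 genes of the list that were lower in aPVAT controls than in tPVAT controls, by -1.36 and -0.40. Helz2 is also known as a coactivator of nuclear receptors and Ifi27 as a mitochondrial protein.

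Genes of antigen presentation, many of them interferon targets, were followed as well. None of the 16 genes of MHC class I passed in a genotype comparison in edgeR or in DESeq2, with 1 in tPVAT and 3 in aPVAT at an unadjusted p under 0.05. In aPVAT cKO all 16 estimates were below 0 with a median of -0.24, and in controls 14 of 16 were higher in aPVAT. Of 7 genes of MHC class II, Cd74 (577 to 373 CPM, log2 fold change -0.63, adjusted p = 0.0451) and H2-DMa (23.8 to 15.3 CPM, -0.63, adjusted p = 0.0429) fell in aPVAT cKO. All 7 had estimates below 0 there, and their sums, 793 to 951 CPM in cKO against 1103 to 1415 CPM in controls, did not meet. DESeq2 called 5 of the 7 lower. MHC class II is also carried by macrophages, dendritic cells and B cells, whose markers are given above.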

How the data were processed

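The authors deposited unscaled read counts, as whole numbers, for Ensembl genes in 15 libraries within 1 table. Per the labels' protocols, total RNA of frozen, pulverised PVAT was extracted with TRIzol and columns, and stranded mRNA libraries were made. The submitters' processing notes name mm10 as the build, and Salmon, Subread and DESeq2 1.42.1 with no role. The sources used here do not give the counting tool, its annotation or its strand setting. Reads that overlapping or near-identical genes share may thus be split or lost.

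Groups came from the labels. Symbols, positions and exon lengths came from GENCODE M21 on GRCm38, which held 42468 identifiers (97.96%), and promoter windows came from RefSeq. The analysis used edgeR 4.0.16 in R 4.3.3: filterByExpr with a minimum count of 10, TMM scaling, and 1 quasi-likelihood model with 4 group means over all libraries (common biological coefficient of variation 0.142). F tests were adjusted by Benjamini and Hochberg over all 19645 genes, with a threshold of 0.05. The SE is the size of the log2 fold change divided by the square root of F. CPM values are scaled by TMM. The script was tested on simulated counts. Chi-square divided by its degrees of freedom was 9.85 to 132 between libraries of 1 group, so none was a copy of another in its group. Libraries of different groups were not compared in this way. The check cannot show whether libraries came from the same animal.

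Alternatives were other scaling, no filter, DESeq2 1.42.0, limma 3.58.1 with library weights or a block, fits of the compared libraries alone, and libraries left out. One of them, without tPVAT controls 1 and 2, was chosen after seeing the data. The genes, lists and tests were chosen with earlier results of these data known. Values per library are given for the 6 genes of the set with the smallest p in each genotype comparison and the 4 in the control depot comparison. A few others of the set are given so as examples. Pathway genes, up to 4 per list and a few others, are described mostly by group means or log2 fold changes.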

Additional observations from a re-analysis of the deposited data

Results flagged for a closer look

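Among 87 combinations of a gene and a group of 4 libraries, 8 had a library whose gap to the nearest of the others took a larger share of the group's range than Dixon's limit for 4 values. Chance gives about 1 in 20 such combinations, and the genes are not independent. In tPVAT controls, control 2 was high for Irf1 (36.7 CPM, next 27.1, share 0.919), Psmb8 (24.6 CPM, next 14.2, share 0.882) and Gbp2 (58.5 CPM, next 32.7, share 0.876), and control 1 was low for Ifi44 (2.10 CPM, next 2.94, share 0.844). In tPVAT cKO, number 2 was high for Mx1 (1.02 CPM, next 0.715, share 0.925) and number 1 low for Ifi44 (1.82 CPM, next 2.55, share 0.969). In aPVAT controls, control 2 was high for Rsad2 (23.5 CPM, next 16.8, share 0.971) and control 1 high for Ifi35 (23 CPM, next 18.2, share 0.837).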

How the results depend on the processing

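Results were recomputed under 24 other settings, 15 of which left out 1 library. The 5 medians of the set kept their sign wherever they were computed, which for the interaction left out the fit of the compared libraries alone. They ran from -0.26 to -0.08 in tPVAT, -0.45 to -0.28 in aPVAT, 0.78 to 1.06 and 0.75 to 0.89 between depots in controls and cKO, and -0.24 to -0.03 for the interaction. Calls between depots ran from 27 to 29 in controls and from 22 to 29 in cKO. In place of 0 calls in tPVAT, DESeq2, library weights and the tPVAT libraries alone each gave 3, the fit without aPVAT control 2 and aPVAT cKO 4 gave 1, and leaving out 1 library gave 0 to 4. In aPVAT, DESeq2 and the fit without tPVAT controls 1 and 2 gave 1 each, and leaving out 1 library 0 to 1. For the interaction DESeq2 gave 1 and leaving out 1 library 0 to 1. The cause of these changes was not tested.

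Samples with the same number showed no clear pairing in their values (correlations of -0.22 to 0.17 over genes, not all over 0.1 in any pair of groups). Between the depots of 1 genotype, where an animal could be shared, they ran from 0.0027 to 0.048 in controls and from -0.030 to 0.165 in cKO. With so few libraries per group, such correlations cannot show whether the depots came from the same mice. A replicate block on the number gave 0, 0, 29, 28 and 0 calls in tPVAT, aPVAT, the depots in controls and in cKO, and the interaction. A block on genotype and number as an animal gave 0, 0, 27, 27 and 0.

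Signs changed for estimates that had not passed, most of them near 0, though Psmb9 in tPVAT was -0.30 with all libraries. In tPVAT Mx1 was 0.026 with the animal block and 0.023 with weights, and Gbp2 0.015 with weights. Without tPVAT controls 1 and 2, Gbp2 was 0.14, Psmb8 0.066, Ifit2 -0.011 and Ifit3 -0.24. In aPVAT Ifit1 was 0.0036 with the animal block, 0.078 with the number block and 0.025 with weights, and Ifi44 0.031 with the number block. Without aPVAT control 2 and aPVAT cKO 4, Ifit1 was 0.32, Ifi44 0.26 and Parp14 0.088. With 1 library left out, tPVAT estimates ran from -0.16 to 0.16 for Ifit3, -0.011 to 0.087 for Parp14, -0.092 to 0.40 for Zbp1, -0.26 to 0.11 for Psmb8, -0.44 to 0.037 for Psmb9, -0.20 to 0.19 for Gbp2, -0.14 to 0.081 for Rtp4, -0.32 to 0.24 for Mx1 and -0.16 to 0.020 for Oasl2. In aPVAT they ran from -0.16 to 0.33 for Ifit2, -0.13 to 0.23 for Ifih1, -0.29 to 0.25 for Ifit1, -0.23 to 0.015 for Rsad2, -0.30 to 0.14 for Ifi44, -0.21 to 0.069 for Parp14 and -0.36 to 0.082 for Ifit3.

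Counts were ample for most genes, but Cxcl10, Mx1 and Mx2 had as few as 23, 21 and 25 reads in a library. SEs ran from 0.08 to 0.33 in tPVAT and from 0.09 to 0.31 in aPVAT. Log2 changes well above 1 SE could still miss the threshold. Rsad2 in tPVAT (-0.38, SE 0.12) and Oas1a in aPVAT (-0.73, SE 0.21) did so in edgeR's test.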

Other observations

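Among the 22 genes with a promoter window, the 12 with an ISRE core had a median log2 fold change of 1.11 between aPVAT and tPVAT in controls (0.40 to 2.33) and the 10 without one had 0.75 (0.57 to 1.63), as a description with no test. In aPVAT cKO both groups of genes had a median of -0.37 against controls, and in tPVAT cKO the medians were -0.15 and -0.23. The adipocyte markers, 8 genes in all, had 4 members that rose in tPVAT cKO and 1 in aPVAT cKO. Of 8 brown and beige markers 2 fell in tPVAT cKO and 5 in aPVAT cKO (edgeR's quasi-likelihood F test, adjusted over all genes). Of all genes tested, 12.0% in tPVAT and 1.53% in aPVAT passed in that test, in either direction. In tPVAT cKO the lymphocyte marker Trac rose by 1.09 on the log2 scale, and the dendritic cell marker Zbtb46 fell. Of 8 tested neutrophil and monocyte markers 1 rose and 1 fell in tPVAT cKO, and 1 of 9 fibroblast markers, Dpt, fell by 0.70 in aPVAT cKO. Of these 9 markers, 8 had estimates below 0 in aPVAT cKO, with a median of -0.24. At an unadjusted p under 0.05 there were 4, where 12.4% of all genes were under that limit. The 4 thymocyte markers tested summed to between 96.5 and 141 CPM, and none passed in a genotype comparison in edgeR or DESeq2.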
